A study of Mus musculus with 6 samples.

Results

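The genes described here encode the proteins of the cytosolic ribosome, with their paralogs, in mouse blastocysts. They were chosen by symbol: names beginning with Rpl or Rps followed by a number, and Rplp0, Rplp1, Rplp2 and Rpsa, without names marked as pseudogenes and without the Rps6k kinases. The rule found 90 genes among the 55378 of the count table, 54 named for the large subunit and 36 for the small. The embryos were injected as zygotes with a control siRNA (siRNA-NC, the NC group) or an siRNA against Eif4a3 (siRNA-Eif4a3, the knockdown or KD group) and collected as blastocysts on day 5. Each group had 3 libraries, each made with Smart-seq2 (a full-length method for polyadenylated RNA) from a pool of 5 embryos and read as pairs of 150 bases. The labels give no strain or parents, and both groups were injected. Nothing in them says that pools of a group came from separate matings, so the p-values measure only the spread between these libraries.

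A ribosome is assembled from ribosomal RNA and a set of proteins, nearly all needed in equal amounts. The messenger RNAs of most of these proteins begin with a tract of pyrimidines, the TOP motif, through which mTOR and LARP1 control their translation together. EIF4A3 is the helicase that anchors the exon junction complex, which is left on spliced messenger RNAs and takes part in splicing and in nonsense-mediated decay, the removal of transcripts with an early stop codon. Several ribosomal protein genes have a paralog, often a copy made from a spliced transcript, whose protein can take the same place in the ribosome. Some also hold exons whose inclusion sends the transcript to decay.

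The sequences below show 2 starts that hold the searched motifs, which a part of these genes share, and a start of Rps24, the member that fell most. They are RefSeq windows on GRCm38.p6, 60 bases before to 20 bases from the start, 5′ to 3′ on the strand of the gene, with the searched motifs in capitals. The window of Rpl35 is chr2:39005112-39005191 on the minus strand, that of Rps10 is chr17:27635225-27635304 on the minus strand, and that of Rps24, at the upstream of its 2 annotated starts, is chr14:24490618-24490697 on the plus strand.
Rpl35: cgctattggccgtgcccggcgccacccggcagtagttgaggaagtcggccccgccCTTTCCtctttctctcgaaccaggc
Rps10: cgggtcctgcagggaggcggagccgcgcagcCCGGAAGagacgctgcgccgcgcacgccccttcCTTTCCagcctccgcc
Rps24: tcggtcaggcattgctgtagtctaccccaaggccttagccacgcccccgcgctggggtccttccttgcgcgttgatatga
Rpl35 and Rps10 hold the tract CTTTCC beside the start, and Rps10 also holds CCGGAAG, the core bound by ETS factors. No motif searched lies in the Rps24 window shown, while the window of its downstream start holds the longer tract CTTTTCC.

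A RefSeq window of 250 bases before to 50 after the start was found for 65 of the 90 genes. CTTTCC, searched on the strand of the gene, was in 26 of the 65 (40.0%), against 16.0% of all 27025 genes with a window. CTTTTCC, on the same strand, was in 9 (13.8%, against 4.56%). CCGGAAG on either strand was in 26 (40.0%, against 9.93%). AAGATGGC, the core bound by YY1, was in 6 on either strand (9.23%, against 3.19%). The end of CTTTCC can share letters with the start of CCGGAAG. A match describes the sequence only.

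Depth was 15607227 to 18697754 block counts per library, and values below are CPM (counts scaled to a common library size) after scaling by edgeR's TMM method. The targeted gene, Eif4a3, measured 302, 255 and 202 CPM in NC and 16.0, 36.2 and 56.2 CPM in knockdown (log2 fold change −2.81, edgeR quasi-likelihood test, adjusted p = 0.00512). From its most counted block alone the log2 fold change was −1.52 (adjusted p = 0.0403). Of 12 blastocyst markers none was at 0, and their summed level was 2451 to 5840 CPM in NC and 682 to 2354 CPM in knockdown. Of the 11 tested, 5 were called lower and 0 higher, where 5.56% and 7.52% of all genes were. Summed cumulus markers reached at most 0.133 CPM (6 of 8 at 0, among them Amh and Fshr), and sperm markers summed to 0.969 to 3.37 CPM (0 of 6 at 0). Blood markers summed to 7.22 to 48.5 CPM in NC and 3.66 to 6.26 CPM in knockdown, and fibroblast markers to 1.79 to 11.8 and 0.963 to 10.7 CPM. The part of these differences in the results below was not tested. In pooled embryos, fewer cells of a type and less RNA per cell cannot be told apart.

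As a class, the ribosomal protein genes did not differ between the groups beyond the spread between libraries. Their share of all block counts was 4.07%, 6.65% and 7.51% in the NC libraries and 4.80%, 6.74% and 7.40% in the knockdown libraries. The means were 6.08% ± 1.79 and 6.31% ± 1.35 (SD, n = 3 each), and the ranges overlapped (exact permutation test, two-sided, p = 0.9, where 0.1 is the smallest p that 3 against 3 allows). Large-subunit genes took 3.60% ± 1.01 and 3.70% ± 0.727 of counts, and small-subunit genes 2.48% ± 0.783 and 2.61% ± 0.628. The ratio of large to small was 1.47 ± 0.0649 in NC and 1.43 ± 0.0863 in knockdown (exact permutation p = 0.5). Without NC replicate 1 the difference in share, knockdown minus NC, turned from above 0 to −0.766 percentage points.

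The replicate-1 library of each group stood apart for these genes. Over the 87 tested genes the median deviation from a gene's own mean of 6 libraries, on the log2(CPM + 0.5) scale, was −0.77, 0.20 and 0.55 in NC replicates 1 to 3 and −0.57, 0.14 and 0.44 in knockdown replicates 1 to 3. NC replicate 1 was the lowest of its group for 85 of the 87 genes and knockdown replicate 1 for 81. Over all 15619 genes tested the same medians lay between −0.02 and 0.05. Mitochondrial ribosomal protein genes had −0.49 in NC replicate 1 and −0.26 in knockdown replicate 1, with 0.03 to 0.35 in the other 4 libraries. The elongation factors and other mRNAs with a TOP motif had 0.00 in NC replicate 1 and −0.32 in knockdown replicate 1.

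**Figure D1:**
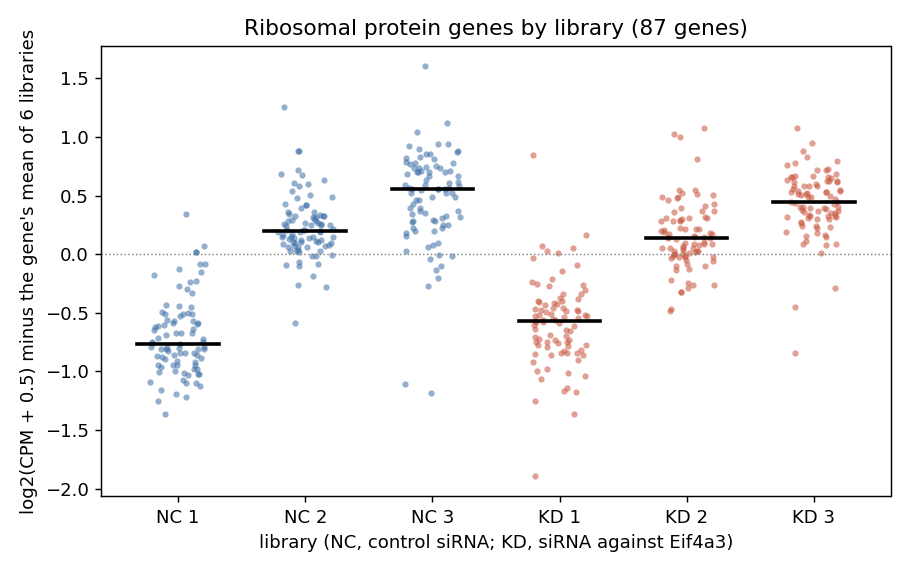
Each point is 1 of 87 ribosomal protein genes, at its log2(CPM + 0.5) minus its mean over 6 libraries (vertical axis), by library (horizontal axis); black bars are medians. The medians of the replicate-1 libraries, −0.77 in NC and −0.57 in knockdown, lie below those of the other 4 libraries.

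Transcript length moved with this difference between libraries. Length was that of a single coding transcript of each gene, the longest marked principal in GENCODE M21, or the longest of all where none was marked. It had a median of 886 bases over 83 members and 2801 bases over 12575 tested genes. Across the 83 members, Spearman's rho between length and the log2 ratio of replicate 1 to the mean of replicates 2 and 3 was 0.46 in NC and 0.39 in knockdown. These points share libraries and are a description. Members with a transcript under 800 bases had a median ratio of −1.36 in NC and −1.05 in knockdown (n = 35), against −0.83 and −0.86 for all 568 tested genes of that length. Members over 1500 bases still had −1.01 and −0.86 (n = 12), against 0.13 and 0.08 for all 10236. Within NC the highest library was a median of 2.55 times the lowest for these genes, against 1.54 times for tested genes with at least 10 CPM. The part of length in the group comparison was not tested.

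Gene by gene, 1 ribosomal protein gene rose and 1 fell. Of the 87 genes tested, Rpl10l was higher and Rps24 lower at an adjusted p under 0.05 (edgeR quasi-likelihood test, Benjamini-Hochberg over 15619 genes). That is 1 of 87 in each direction, where 7.52% of all genes were called higher and 5.56% lower (13.1% in either direction). DESeq2 called the same 2 genes, where it called 3319 of all 15619 genes, more than the 2043 of edgeR. An unadjusted p under 0.05 was found for 5 members, against 30.1% of all genes. CPM did not overlap between the groups for 3 members that were higher (Rpl10l, Rps9 and Rps3), where 20.1% of all genes did so, and for 2 that were lower (Rps24 and Rpl3), where 16.4% did. The median log2 fold change of the members was −0.04, beside 0.03 for all genes, and 41 of 87 were above 0. It was 0.02 over the 52 large-subunit genes and −0.05 over the 35 small-subunit genes. Leaving out NC replicate 1 moved the median to −0.30 and leaving out NC replicate 3 to 0.22. The standard error of a member's log2 fold change is drawn beside it in the plot of fold changes.

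**Figure D2:**
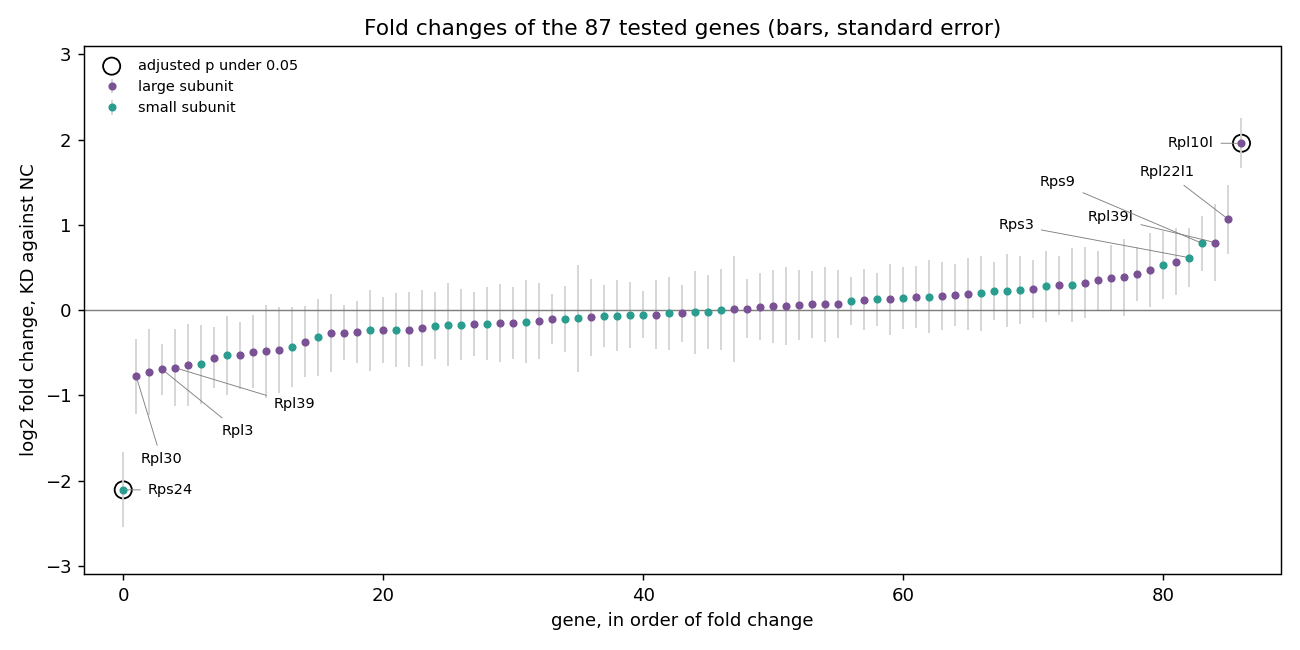
Log2 fold change, knockdown against NC (vertical axis; bars, standard error), of the 87 tested genes in order of that value (horizontal axis); circled genes have an adjusted p under 0.05. Rpl10l at 1.96 and Rps24 at −2.11 are circled, and the other 85 genes lie between −0.78 and 1.06.

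Rps24 encodes a small-subunit protein that takes part in maturation of the small subunit's RNA and is mutated in some patients with Diamond-Blackfan anaemia. The gene lies at chr14:24487125-24496959 on the plus strand (GRCm38). It measured 278, 522 and 665 CPM in NC and 58.8, 159 and 122 CPM in knockdown. Every knockdown library lay below every NC library. The means were 488 ± 196 and 113 ± 50.5 CPM (SD, n = 3 each), 4.32-fold lower in knockdown, and the log2 fold change was −2.11 with a standard error of 0.44 (edgeR, adjusted p = 0.0141). With each library left out in turn the adjusted p stayed between 0.0156 and 0.0498.

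The exon lines of Rps24 with at least 10 CPM in NC were lower in knockdown. In contrast, 3 lines within the intron after the exon at chr14:24490681-24490758 overlapped between the groups. The most upstream annotated exon, at chr14:24487125-24487198, held 0, 1 and 2 counts in NC and 0, 3 and 0 in knockdown. The next exon, at chr14:24490681-24490758, is called the first exon here. It measured 90.5 ± 37.8 CPM in NC and 18.2 ± 7.70 in knockdown, 4.98-fold lower. The third exon, at chr14:24491907-24491989, measured 193 ± 79.4 and 45.2 ± 20.9 CPM, 4.28-fold lower. The line at chr14:24495775-24496959, which ends the gene, was 4.30-fold lower, at 72.9 ± 30.2 and 16.9 ± 9.08 CPM. The line at chr14:24490767-24491024, from an annotated exon within the intron after the first exon, held 36, 44 and 69 counts in NC and 55, 55 and 51 in knockdown, or 3.08 ± 1.38 and 2.99 ± 0.383 CPM. Both further lines that lie within that intron, at chr14:24490785-24491461 and chr14:24490859-24491190, also overlapped between the groups. They measured 3.64 ± 1.53 against 3.51 ± 0.345 CPM and 3.53 ± 1.54 against 3.37 ± 0.393 CPM. The 3 lines share bases, so a pair can count in more than 1 of them, and they are not separate measurements. A line that covers the end of that intron and the second exon, at chr14:24491149-24491815, was 4.23-fold lower, at 158 ± 65.3 and 37.5 ± 16.3 CPM. The thinly counted line at chr14:24493617-24494088, in a later intron, was also lower, with 16, 7 and 6 counts in NC and 1 in each knockdown library. Relative to the most counted line of the gene, the line at chr14:24490767-24491024 stood at 1.30%, 1.13% and 1.41% in NC and at 8.86%, 4.07% and 5.00% in knockdown. Rps24 has a known alternative exon of 3 bases, at chr14:24495430-24495432, whose line held 20, 16 and 18 counts in NC and 4, 10 and 5 in knockdown. A line of 20 bases that contains it, at chr14:24495430-24495449, held 21, 17 and 18 and 4, 10 and 5 counts. These counts cannot be assigned to the exon of 3 bases. Relative to the most counted line, the shorter line stood at 0.720%, 0.410% and 0.368% in NC and at 0.644%, 0.740% and 0.491% in knockdown, with overlap.

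**Figure D3:**
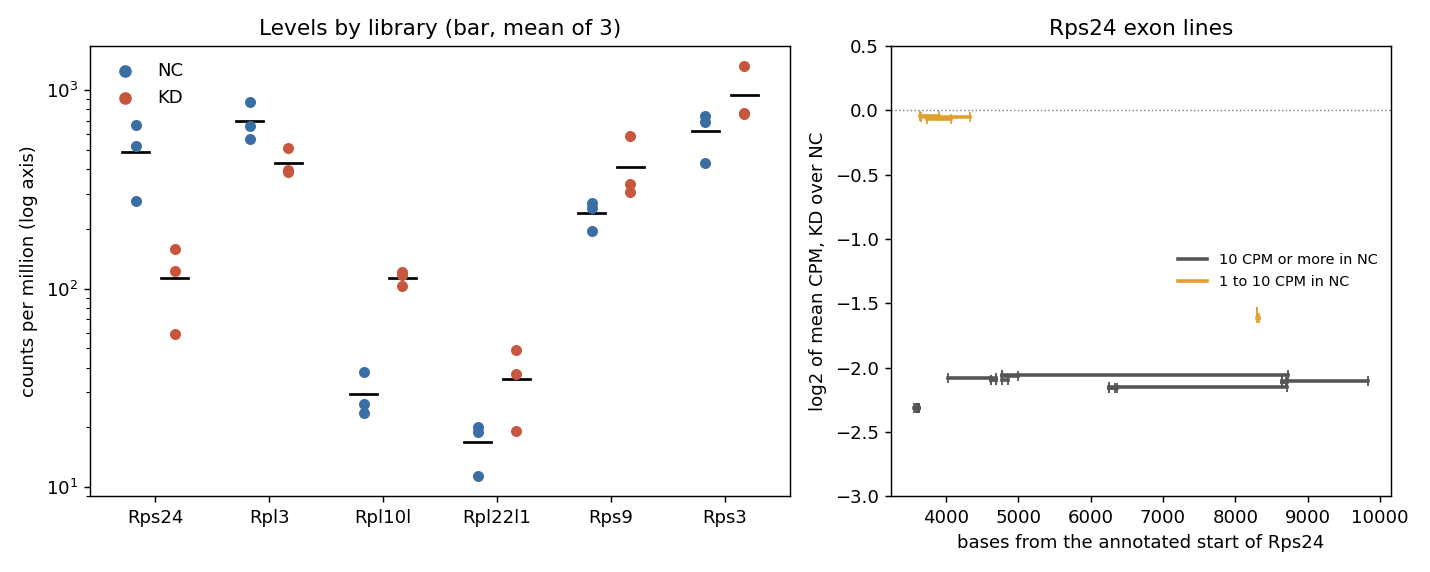
Left, CPM on a log axis of 6 genes in the 3 NC and 3 knockdown libraries (points; bars, means). Right, deposited exon lines of Rps24 with at least 1 CPM in NC, by bases from the annotated start of the gene. The vertical axis is log2 of mean CPM, knockdown over NC. The 3 lines near 0 share bases and lie within the intron after the exon at chr14:24490681-24490758. The exon lines of at least 10 CPM lie near −2.

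Rpl10l is an intronless autosomal copy of the X-linked Rpl10, whose protein joins the large subunit late in its assembly, and is known from the male germ line, where it stands in for its parent. It lies on chromosome 12. Rpl10l measured 23.7, 37.8 and 26.3 CPM in NC and 103, 117 and 121 CPM in knockdown, with a wide gap between the groups. The means were 29.3 ± 7.48 and 114 ± 9.68 CPM, 3.88-fold higher in knockdown, and the log2 fold change was 1.96 with a standard error of 0.29 (edgeR, adjusted p = 0.00471). The call held with each library left out (adjusted p 0.0065 to 0.0256). Rpl10 measured 863, 1119 and 1586 CPM in NC and 535, 811 and 1074 in knockdown, with overlapping groups (log2 fold change −0.56, adjusted p = 0.325).

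How far counts of this pair can be told apart depends on their sequence. The first 60 coding bases of each, from GENCODE M21 transcripts on GRCm38, are shown with the 9 differing bases in capitals.
Rpl10: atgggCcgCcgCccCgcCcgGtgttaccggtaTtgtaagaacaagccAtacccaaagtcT
Rpl10l: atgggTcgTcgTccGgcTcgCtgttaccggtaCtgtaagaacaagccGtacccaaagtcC
Over the whole coding sequence of 645 bases the genes shared 547 bases (84.8%), and the longest identical run was 23 bases, shorter than a read of 150 bases. Pairs that align to several places were not counted in the deposited table.

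The 4 X-linked members, Rpl10, Rpl36a, Rpl39 and Rps4x, are all parents of a paralog, and 0 of these 4 passed the test, where 13.1% of all genes were called. The share of each pair's CPM that came from the paralog is free of shifts that move both genes of a library alike. In 6 of 7 pairs this share did not overlap between the groups, higher in knockdown in 4 and lower in 2. For a single gene's CPM, 36.4% of all genes did not overlap. That share was not computed for ratios of gene pairs, so the 6 of 7 cannot be read against it. Each of the 6 pairs had the smallest exact permutation p that the design allows, 0.1 (0.117 after Benjamini-Hochberg adjustment over the 7 pairs), so none passed 0.05. The differences below are in log2((paralog + 0.5)/(parent + 0.5)), knockdown minus NC. CPM were not scaled by length or by number of blocks, which differ within a pair. Shares therefore show change between libraries and not which gene had more transcripts.

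Rpl10l made up 2.67%, 3.27% and 1.63% of its pair in NC and 16.1%, 12.6% and 10.1% in knockdown, a difference of 2.54. Rpl39l, the autosomal copy of Rpl39, which lines the exit tunnel of the large subunit, made up 40.6%, 36.2% and 41.9% in NC and 65.2%, 65.3% and 63.0% in knockdown. Its means were 39.6% ± 3.01 and 64.5% ± 1.30, and the difference was 1.47. The copy thus held the smaller share of its pair's CPM in every NC library and the larger share in every knockdown library. Rpl39l measured 96.4, 184 and 269 CPM in NC and 159, 444 and 348 in knockdown (log2 fold change 0.79, adjusted p = 0.266). Rpl39 measured 141, 325 and 373 CPM in NC and 85.1, 236 and 204 in knockdown (−0.68, adjusted p = 0.342). CPM of each gene overlapped between the groups, while the ratio within a library did not.

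Rpl22l1, the paralog of Rpl22, made up 7.78%, 6.97% and 5.60% of its pair in NC and 12.03%, 13.5% and 9.86% in knockdown, a difference of 0.86. Rps27l, which differs from Rps27 in few residues and is known as a p53 target, held the larger share of CPM throughout. It made up 86.2%, 87.3% and 87.9% in NC and 91.7%, 90.5% and 90.7% in knockdown, a difference of 0.57. The share of Rpl36al was lower in knockdown, at 37.5%, 39.1% and 38.6% in NC and 30.6%, 28.7% and 31.9% in knockdown without overlap, a difference of −0.51. That of Rpl7l1, which shares 53.0% of aligned coding bases with Rpl7, was 31.2%, 28.2% and 29.4% in NC and 28.1%, 19.2% and 24.5% in knockdown, a difference of −0.43 in which the nearest libraries almost touched. Rps4l was 17.1%, 12.5% and 14.9% of its pair with Rps4x in NC and 25.1%, 12.4% and 11.6% in knockdown, with overlap (difference 0.09, exact p = 1). Without knockdown replicate 1 that difference was −0.34. The eighth paralog, Rpl3l, known from muscle, was not tested for want of counts, with at most 0.469 CPM in a library.

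**Figure D4:**
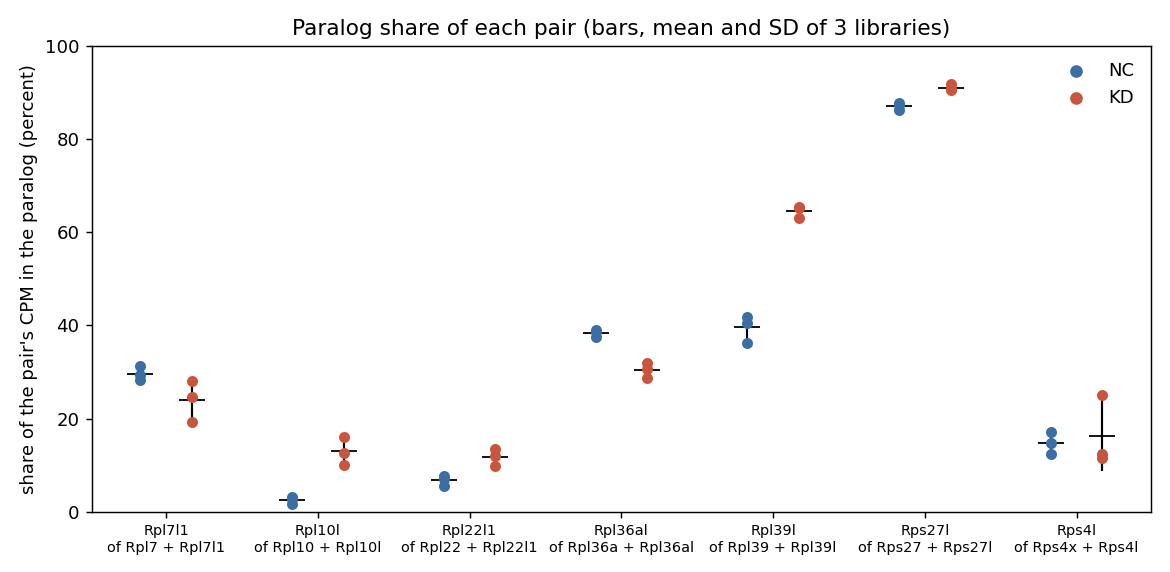
Share of each pair's CPM in the paralog (vertical axis, percent) for 7 pairs in 3 NC and 3 knockdown libraries (points; bars, mean and SD). The means of Rpl39l are 39.6% in NC and 64.5% in knockdown and those of Rpl10l 2.52% and 13.0%, while the libraries of Rps4l overlap.

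Coding identity was 85.3% for Rpl39 and Rpl39l over 156 bases, with an identical run of 38 bases, and 87.9% for Rpl36a and Rpl36al. It was 66.9% for Rpl22 and Rpl22l1 and 76.1% for Rps27 and Rps27l. Blocks that an exon of another gene overlaps at some base make up all of Rpl22l1 and Rpl36al and 46.6% of the length of Rpl10. The part covered was not measured, and counts where genes overlap cannot be assigned to 1 gene.

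The other 3 members with an unadjusted p under 0.05 were Rpl22l1, Rps9 and Rpl3. Rpl22l1 measured 11.4, 19.0 and 20.1 CPM in NC and 19.2, 49.3 and 37.0 in knockdown (log2 fold change 1.06, adjusted p = 0.107). It passed without knockdown replicate 1, at 1.33 with an adjusted p of 0.0357. Rps9, a small-subunit protein of the decoding region that controls splicing of its own transcript, measured 196, 269 and 254 CPM in NC and 308, 338 and 590 in knockdown, without overlap (0.78, adjusted p = 0.139). Rpl3, a large-subunit protein near the peptidyl transferase centre, also with an exon that sends its transcript to decay, measured 568, 870 and 657 CPM in NC and 508, 387 and 398 in knockdown, without overlap (−0.70, adjusted p = 0.142). Rps3, at the entry of the mRNA channel, did not overlap either, at 431, 738 and 693 against 772, 760 and 1318 CPM (0.61, adjusted p = 0.262). Rpl30, chosen after its values were seen, had the lowest log2 fold change after Rps24, at 158, 315 and 447 CPM in NC and 95.5, 213 and 228 CPM in knockdown, with overlap (−0.78, adjusted p = 0.260).

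The functional groups below held no called member, where 13.1% of all genes were called; groups of 3 to 8 genes are too small to read against that share. None of the 3 stalk genes passed: Rplp0, Rplp1 and Rplp2, which form the stalk that recruits elongation factors, had log2 fold changes of −0.04, 0.18 and 0.05. Of 4 members known to regulate their own splicing 0 passed in the edgeR test (2 at an unadjusted p under 0.05), and of 8 whose protein binds MDM2 0 passed (0 unadjusted), with medians of 0.04 and 0.06. Among 24 members whose span holds a gene named as a small nucleolar RNA (Snor names) 0 passed (1 unadjusted), with a median of −0.11. The median of the other 63 tested was −0.03. Strand and position in an intron were not checked. Fau and Rack1, ribosomal components outside the naming rule, did not pass in the edgeR test either, at −0.18 and −0.11 (adjusted p = 0.842 and 0.859).

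Levels among members spanned a wide range. Per kilobase of merged exon length in NC, Rps27l (2127 CPM), Rpl19 (1894), Rps15 (1751) and Rplp0 (1462) were among the highest. The ranges of these genes overlapped over the 3 NC libraries. Rps3a3 (1.23 CPM per kilobase), Rpl6l (1.78) and Rpl22l1 (8.46) were the lowest of those tested. Merged length includes introns where a transcript that retains one is annotated, so such genes read low on this scale. Rpl32l and Rps12l1 were, with Rpl3l, the 3 members without enough counts for a test.

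Exon use within members was compared by the share of each gene's counts in each merged exon block. Of 328 blocks tested in members, 0 changed in share at an adjusted p under 0.05 (edgeR diffSpliceDGE), where 0.175% of all 67890 blocks did, and limma called 0 as well. Shares did not overlap between the groups for 38 member blocks that were higher in knockdown and 34 that were lower, where 10.7% and 8.51% of all blocks did so. An unadjusted p under 0.05 was found for 7 member blocks, against 2.54% of all. These 7 were among the 15 blocks that held under 1% of their gene in NC. Of all 1290 such blocks, 383 had an unadjusted p under 0.05. Of those 15, 6 had higher shares in knockdown without overlap and 1 lower, where 37.4% and 3.8% of all such blocks did.

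The block with the smallest p is the decay exon of Rpl37a, a large-subunit protein. It lies at chr1:72713182-72713339 on the plus strand and in GENCODE M21 is annotated only in transcripts marked for nonsense-mediated decay. Its first 55 bases, from the splice junction to the stop codon that it brings (capitals), are chr1:72713182-72713236.
Rpl37a: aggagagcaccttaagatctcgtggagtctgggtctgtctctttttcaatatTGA
The block held 2, 4 and 10 counts in NC and 38, 41 and 39 in knockdown, or 0.0597%, 0.0713% and 0.131% against 1.05%, 0.595% and 0.595% of the counts of Rpl37a. Every knockdown library lay above every NC library, with means 8.54-fold apart (edgeR diffSpliceDGE, adjusted p = 0.784). With the replicate number as a block in the fit the adjusted p was 0.0208. The level of Rpl37a as a whole was 347 ± 169 CPM in NC and 327 ± 137 CPM in knockdown.

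In the 5 blocks with the next smallest p the share was higher in knockdown without overlap. These blocks and that of Rpl37a were chosen by p in the same libraries, so the separation of the groups adds no support. In Rps15a, whose protein lies in the body of the small subunit, the second block (chr7:118115740-118116129) held 0.541%, 0.249% and 0.168% in NC and 1.52%, 1.02% and 1.10% in knockdown. In Rps23, a protein of the decoding centre, the second block (chr13:90923217-90923406), known from a noncoding transcript, held 0.0987% ± 0.0221 in NC and 0.327% ± 0.0883 in knockdown. In Rpl13a the second block (chr7:45127828-45128153) held 0.0633% ± 0.00786 and 0.274% ± 0.0991. The first block of Rpl15 (chr14:18271219-18271391) held 0.318% ± 0.110 and 0.741% ± 0.115, and the second of Rps27l (chr9:66946355-66946512) 0.0373% ± 0.0114 and 0.144% ± 0.0443. Their adjusted p was 0.831 or more, and with the replicate block the blocks of Rps15a and Rpl13a passed (adjusted p = 0.0223 and 0.0363). In that fit 186 of all 67890 blocks passed, against 119 without the replicate block.

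**Figure D5:**
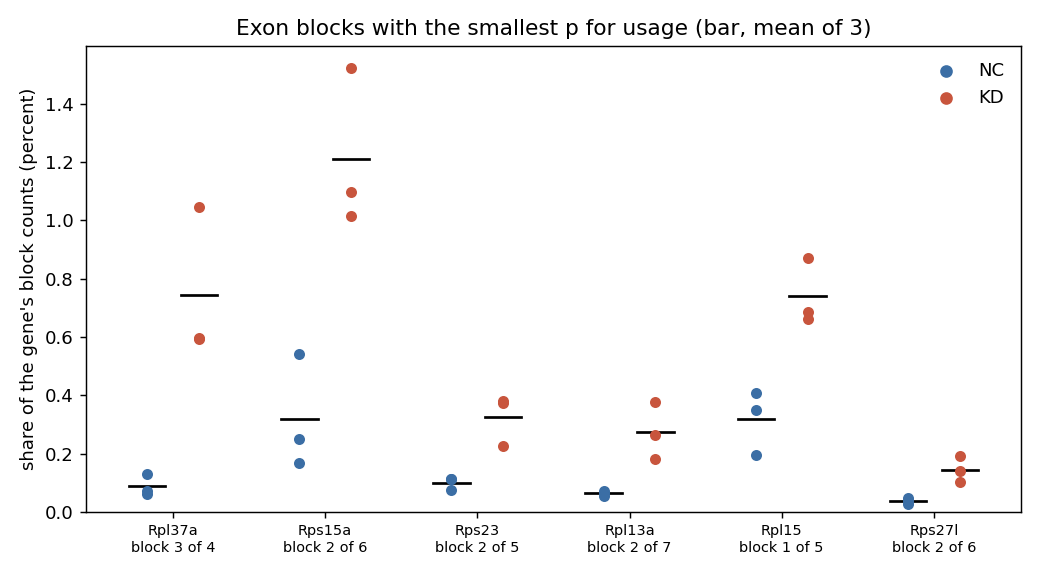
Share of the gene's block counts (vertical axis, percent) of the 6 member blocks with the smallest p for usage, in 3 NC and 3 knockdown libraries (points; bars, means). In all 6, which were chosen by p in these same libraries, the knockdown libraries lie above the NC libraries, at 1.52% or less.

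Shares were also compared by position along the gene. The first block had a higher share in knockdown without overlap in 16 of 70 members and a lower one in 2, where 16.5% and 3.86% of all first blocks did. The last block had a higher share in 0 of 76 members and a lower one in 22, where 4.24% and 16% of all last blocks did.

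Lists of genes that work with the ribosome or control its mRNAs were counted in the same fit. Of 16 elongation factors and other TOP mRNAs, 0 were higher and 2 lower (12.5%, near the 13.1% of all genes called in either direction, of which 5.56% were lower), with a median of −0.16. Eif4b, a helper of the helicase that opens the 5′ end of mRNAs, measured 58.7, 64.9 and 25.2 CPM in NC and 18.1, 17.02 and 20.6 in knockdown (−1.42, adjusted p = 0.0359). Eef2, which moves the ribosome along the mRNA, measured 326, 325 and 137 CPM against 134, 73.6 and 100 CPM (−1.36, adjusted p = 0.0453). Eif4b lost the call without any 1 library other than NC replicate 3 (adjusted p 0.0556 to 0.129), and Eef2 without NC replicate 1 or 2 or knockdown replicate 2 or 3 (adjusted p 0.111 to 0.142). Eef1a1, which brings aminoacyl-tRNA, measured 1662, 1808 and 1807 CPM against 1104, 1310 and 861 CPM, without overlap (−0.69, adjusted p = 0.147).

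Of 15 genes of mTOR and MYC control 0 were higher and 3 lower (20%, where 5.56% of all genes were called lower and 13.1% in either direction), with a median of −0.50. Mycn fell from 7.56, 4.65 and 3.61 CPM to 0, 0.606 and 0.120 CPM (−4.46, adjusted p = 0.0155). At so few counts its size was uncertain, at −3.88 without knockdown replicate 1 and −6.43 without knockdown replicate 2. Myc, a driver of ribosomal gene transcription, fell from 17.96, 14.8 and 26.3 to 5.11, 1.999 and 8.004 CPM (−1.97, adjusted p = 0.0309). Larp1, which binds the TOP motif, fell from 63.7, 77.8 and 63.3 to 30.7, 41.9 and 30.8 CPM (−0.99, adjusted p = 0.0453). The call of Mycn was lost without knockdown replicate 3 (adjusted p = 0.0513), that of Myc without any 1 library other than knockdown replicate 3 (0.0519 to 0.0969) and that of Larp1 without any 1 of the 6 libraries (0.0635 to 0.142).

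Of 6 chaperones and import factors of ribosomal proteins 0 passed (0 at an unadjusted p under 0.05), where 13.1% of all genes were called. So few genes cannot be read against that share. Among them Heatr3 stood at −0.85 (adjusted p = 0.206), Tsr2 at 0.40 (0.396) and Rrs1 at −0.35 (0.705), from the edgeR fit. Mitochondrial ribosomal protein genes, which serve the other ribosome of the cell, had 1 of 78 higher and 0 lower, with a median of 0.14. Of all genes, 7.52% were called higher and 5.56% lower. The gene called higher, Mrpl39, measured 153, 207 and 207 CPM in NC and 320, 432 and 481 in knockdown (1.12, adjusted p = 0.0320). The call was lost without any 1 library other than knockdown replicate 1 (adjusted p 0.0834 to 0.104). Of 300 named ribosomal protein pseudogenes in the table, 75 had enough counts and 0 passed in the edgeR test, against 13.1% of all genes. An unadjusted p under 0.05 was found for 5 of them, against 30.1% of all genes. A named pseudogene exists for 61 of the 90 members, and pairs that match both places are not counted for either.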

How the data were processed

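The deposited values are raw counts of read pairs for each exon line of GENCODE vM29 lifted to GRCm38, made with featureCounts 2.0.1, per the file headers. Each pair counts in every line it overlaps, strand setting 2 was used although Smart-seq2 does not mark strand, and no option counted pairs with several alignments. Counts of genes that overlap cannot be told apart. The submitters' processing notes name FastQC 0.11.9, fastp 0.20.1, STAR 2.7.6a, featureCounts 2.0.1, R 4.1.1 and DESeq2 1.34.0.

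The tests had been laid out for counts per gene. Repeated lines were dropped, overlapping exons merged into 291424 blocks, the most counted line of each block kept, and blocks summed per gene, so a spliced pair counts in more than 1 block. Symbols were matched for 55102 of 55378 genes. Genes passing filterByExpr were tested with edgeR 4.0.16 (TMM, quasi-likelihood, threshold 0.05), blocks with diffSpliceDGE, both checked on simulated data. Blocks made to change in the simulation were well counted and all lowered. The check therefore does not cover thinly counted blocks that rise. Ratios had a pseudocount of 0.5 CPM and an exact permutation test. Alternatives used limma 3.58.1 and DESeq2 1.42.0 in R 4.3.3. Of the members, 40 have a block that another gene overlaps at some base, and in 25 such blocks make up most of the merged length.

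Genes named are members past the threshold or with the smallest p, both genes of each pair, the highest and lowest levels, the blocks with the smallest p, and up to 3 genes per further list. Genes outside this rule are said to be chosen after their values were seen. Values of some genes under this rule are not reported here. Members and lists were chosen with earlier results of these data known. Same-numbered libraries deviated together weakly across genes (r = 0.269, 0.003 and 0.100) and more so across the members (r = 0.675, 0.196 and 0.335). The groups were compared unpaired, by the values over all genes.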

Additional observations from a re-analysis of the deposited data

How the results depend on the processing

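Over 17 alternatives to the gene-level test, Rps24 and Rpl10l kept their calls, with an adjusted p of at most 0.0498 and 0.0256. The count of members called higher was 1, and became 2, with Rpl22l1, when only the most counted block of a gene was used; with libraries left out it was 1 to 2. The count called lower became 2, with Rpl30, when the replicate block entered the model, where 3 exon blocks passed in place of 0. That model called more in the whole table too, with 2527 of 15619 genes against 2043 and 186 of 67890 blocks against 119. The 3 blocks were among the 15 under 1% of their gene in NC. Of all 1290 such blocks 108 passed in that model, against 69 without it. Among the other genes named, the replicate block ended the call of Eif4b (adjusted p = 0.0526) and made 1 of Eef1a1 (0.0468); it changed no other call that is reported. The labels do not say that a number pairs libraries. Over members, same-numbered libraries correlated at 0.675, 0.196 and 0.335, and knockdown replicate 2 correlated best with NC replicate 3 (0.313). Larp1 lost its call with upper-quartile scaling (adjusted p = 0.0648), total counts (0.0768) and the filter of 5 CPM (0.0541), Eef2 with total counts (0.0790) and the sum of all lines (0.0530), and Eif4b with the same (0.0609 and 0.0625). TMM scaling on genes other than the members was chosen after seeing the data and left the members' median at −0.04.

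With libraries left out, the difference in the members' share of counts lay between −0.766 and 0.994 percentage points, and the ratio of Rps4l to Rps4x between −0.34 and 0.34 (log2). The other 6 pairs kept their direction under every alternative run. Small log2 fold changes changed sign: with libraries left out, Rpl36a ranged from −0.29 to 0.33, Rplp0 from −0.28 to 0.11, Rplp1 from −0.17 to 0.54, Rplp2 from −0.40 to 0.32, Rps27l from −0.43 to 0.33 and Rps4x from −0.46 to 0.20. Fau ranged from −0.77 to 0.066, Rack1 from −0.32 to 0.056 and Rrs1 from −0.75 to 0.11. Upper-quartile scaling gave Rplp0 0.036, Rps27l 0.037 and Rps4x 0.014; the filter of 5 CPM gave 0.025, 0.043 and 0.0031. The most counted block gave Rplp0 0.013 and Rps27l 0.048. Rps27l stood at 0.039 with total counts and 0.064 with the replicate block. The cause was not tested. What size of shift in the class 3 libraries a group could show was not tested.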
